A study of Mus musculus with 24 samples.

Results

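The 10 genes described here carry out fluid secretion and transport in the bile duct, namely *Cftr*, *Sctr*, *Slc4a2*, *Slc10a2*, *Aqp1*, *Gpbar1*, *Ano1*, *Pkhd1*, *Pkd2* and *Ggt1*. They were listed by their symbols for these functions, with earlier results of these data known. All 10 of them were found among the 49568 genes of both expression tables. All 10 passed the filter on low values in both tables. Their levels were compared above all between ductal cells fresh from the liver and the organoids grown from them.

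Bile ducts are lined by cholangiocytes, which dilute and alkalinize the bile that hepatocytes make. The hormone secretin binds its receptor on these cells and raises cAMP, which opens the chloride channel CFTR. An anion exchanger then takes the secreted chloride back up in exchange for bicarbonate, which leaves the cell, and water follows through aquaporins, while calcium signals open a second kind of chloride channel. Cholangiocytes also take up bile acids at their apical membrane, sense flow with a primary cilium, and break down glutathione in the duct lumen.

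RNA was measured in 2 experiments with 12 samples each. In the homeostasis experiment, 3 littermates aged 12 weeks, heterozygous for B6.129S4-Pdgfratm11(EGFP)Sor/J on C57BL/6, gave 4 sorted populations each. One was EpCAM+ ductal cells (DCs), and the stroma was split by 2 markers into PDGFRα+SCA1+ cells, cells with PDGFRα only (PDGFRα+SCA1-) and cells with SCA1 only (PDGFRα-SCA1+). All were sorted against CD45, CD11b and CD31. Mice A and E were male and mouse F was female, and PDGFRα was read from a nuclear GFP reporter in one *Pdgfra* allele, so that *Pdgfra* itself was not the marker sorted on. In the transwell experiment, wild type C57BL/6 mice aged 8 to 12 weeks gave 6 groups with 2 replicates each. DCs were taken at day 0, after 15 days as organoids alone in growth-factor-rich expansion medium (EM organoids), and after 15 days as organoids in mesenchymal medium without growth factors above SCA1+ mesenchymal cells (co-cultured organoids). The SCA1+ mesenchymal cells (SCA1+Msc) were sorted without regard to PDGFRα and measured at day 0 and at day 15, the latter with or without organoids above them. The methods state that DCs came from 2 littermates and SCA1+Msc from 2 others. They also state that SCA1+Msc were expanded in mesenchymal medium before DCs were added for 15 days. The time of SCA1+Msc in culture can thus exceed 15 days. The paper calls the 2 replicates of these groups independent biological replicates. The labels do not say whether the replicates of a cultured group are separate mice. The p-values measure the spread between these samples. Co-cultured and EM organoids differ in their medium as well as in the presence of SCA1+Msc, and these differences cannot be told apart.

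Between 19.6 M and 25.7 M reads fell on genes in the homeostasis samples, and between 19.3 M and 28.0 M in those of the transwell experiment. Values of the homeostasis experiment are those deposited under the name TPM, which differ from TPM by a factor between 0.722 and 1.39, and values of the transwell experiment are TPM, a share of transcripts corrected for gene length, made from the deposited RPKM. All 7 ductal markers reached a value of 1 in DCs and in both organoid groups, where their summed TPM was 51888 to 53899 at day 0, 47271 to 48526 in EM organoids and 37127 to 39467 in co-cultured organoids. Single ductal markers moved in opposite directions in co-culture, where *Krt19* went from 2612 to 2731 TPM to 14387 to 15435 and *Spp1* from 43285 to 45483 to 17639 to 18990, and 2 of the 7 were higher and 2 lower past the threshold. All 10 genes of a proliferation list rose in both kinds of organoid, from a summed TPM of 24.8 to 27.5 in fresh DCs to 318 to 380.02 in EM and 326 to 385 in co-cultured organoids. Markers of other cell types were also measured in fresh DCs, and their sums were lower in organoids. Whether these transcripts came from other cells or from DCs was not tested. The 6 mesenchymal markers summed to 68.6 to 90.6 TPM at day 0, 1.15 to 6.21 in EM and 2.31 to 14.9 in co-cultured organoids, and the 5 leukocyte markers to 147 to 179, 24.97 to 28.5 and 90.3 to 96.03. The endothelial, erythroid and hepatocyte sums are given beside the aquaporins. In the stromal samples the sum of ductal markers in PDGFRα-SCA1+ cells was 80.0 for mouse A, 3785 for mouse E and 329 for mouse F, and it was 1199 and 2552 TPM in SCA1+Msc at day 0, against at least 56564 in the DCs of the homeostasis experiment.

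On GRCm38 (GENCODE M21) *Cftr* lies at chr6:18170687-18322768 and *Aqp1* at chr6:55336432-55348555, and *Sctr* at chr1:120006894-120063536, *Gpbar1* at chr1:74278550-74279624 and *Pkhd1* at chr1:20057779-20618064. *Slc4a2* lies at chr5:24423837-24440950, *Pkd2* at chr5:104459450-104505819, *Ano1* at chr7:144588549-144751974, *Slc10a2* at chr8:5083219-5105351 and *Ggt1* at chr10:75561604-75586200. *Pkhd1*, *Ano1* and *Slc10a2* are on the minus strand and the other genes on the plus strand.

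Promoters were taken from RefSeq on GRCm38.p6, each from 250 bases before to 50 after a RefSeq start of a gene. Of the 10 genes 9 had an entry, with 13 windows in all. *Sctr* had none. Those of *Cftr* and *Pkhd1* are shown because both genes were lower in both kinds of organoid. Those of *Slc10a2* and *Ano1* are shown because they were higher in co-cultured organoids. The *Ano1* window lies inside the gene span given above, not at its upstream end at chr7:144751974. Capitals mark the binding sequence of the HNF1 factors, searched on both strands as GTTAATNATTAA with N as any base, and the CCAAT box, searched as CCAAT. The windows lie at chr6:18170437-18170736 (plus strand), chr1:20618008-20618307 (minus strand), chr8:5105238-5105537 (minus strand) and chr7:144738524-144738823 (minus strand), in the order of the lines, and each reads 5′ to 3′ along its gene.
Cftr: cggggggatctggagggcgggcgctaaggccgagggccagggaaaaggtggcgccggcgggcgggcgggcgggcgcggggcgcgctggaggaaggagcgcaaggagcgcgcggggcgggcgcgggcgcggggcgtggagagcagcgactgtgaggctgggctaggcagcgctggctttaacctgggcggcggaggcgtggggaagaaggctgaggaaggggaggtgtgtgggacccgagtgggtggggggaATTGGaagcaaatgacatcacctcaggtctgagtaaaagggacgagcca
Pkhd1: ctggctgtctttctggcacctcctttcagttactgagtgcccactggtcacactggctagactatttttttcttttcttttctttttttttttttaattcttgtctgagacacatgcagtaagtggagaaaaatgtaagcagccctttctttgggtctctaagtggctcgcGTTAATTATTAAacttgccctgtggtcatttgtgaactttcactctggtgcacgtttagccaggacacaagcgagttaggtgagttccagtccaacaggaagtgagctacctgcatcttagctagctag
Slc10a2: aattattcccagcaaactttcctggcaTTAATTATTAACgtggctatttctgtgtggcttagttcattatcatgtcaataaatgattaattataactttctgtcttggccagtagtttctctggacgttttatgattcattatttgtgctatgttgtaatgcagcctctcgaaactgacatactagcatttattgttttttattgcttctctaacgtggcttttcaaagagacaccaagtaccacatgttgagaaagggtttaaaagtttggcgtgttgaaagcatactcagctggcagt
Ano1: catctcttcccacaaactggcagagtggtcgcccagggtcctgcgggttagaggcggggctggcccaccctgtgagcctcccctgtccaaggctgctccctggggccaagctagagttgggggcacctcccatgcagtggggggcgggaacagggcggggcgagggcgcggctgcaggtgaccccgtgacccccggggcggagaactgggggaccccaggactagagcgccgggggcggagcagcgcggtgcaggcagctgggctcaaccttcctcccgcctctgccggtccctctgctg
The HNF1 sequence was found in 20 of 32851 promoter windows (0.0609%), and the windows of *Pkhd1* and *Slc10a2* were among these, from base -79 to -68 and, on the strand opposite to the gene, from base -223 to -212 relative to the start. Its first part alone, GTTAAT, is in 7.1% of windows, and those of the same genes are the 2 of the 13 that hold it. The CCAAT box of *Cftr* was on the strand opposite to the gene, from base 2 to 6 after the start, and 37.4% of all windows hold one. The windows of *Cftr* and *Ano1* held 71.3% and 71.7% G and C, and those of *Pkhd1* and *Slc10a2* 43.3% and 36%. The cAMP response element TGACGTCA, in 1.79% of all windows, was found in 1 window of *Ggt1* and in no other of the 13.

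Of the 10 genes, 2 were higher and 3 lower in EM organoids than in fresh DCs at an adjusted p under 0.05 (limma), against 27.1% of all 18136 genes tested that were higher and 17.2% that were lower. In co-cultured organoids 3 were higher and 5 lower than in fresh DCs, against 23.2% and 19.1% of all genes. Between the organoids 1 gene was lower in co-culture and none higher, where 7.21% and 5.73% of all genes were. The first pair of comparisons shares the same fresh DC samples. The median log2 fold change of the 10 genes was -0.20 in EM and -0.29 in co-cultured organoids, beside 0.12 and 0 over all genes tested, and quantile normalization moved the median over all genes from 0.12 to 0 in the first. The falls past the threshold were those of the secretin receptor, CFTR, fibrocystin and, in co-culture, aquaporin 1 and polycystin-2. Of 19 alternative fits, 13 ended the call of polycystin-2 and 6 that of fibrocystin in EM organoids. The anion exchanger, the bile acid transporter and the calcium-activated chloride channel were at or above their level in the fresh DCs of the same experiment. *Ggt1* was called higher in EM organoids, and 14 of the 19 ended this call.

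**Figure D1:**
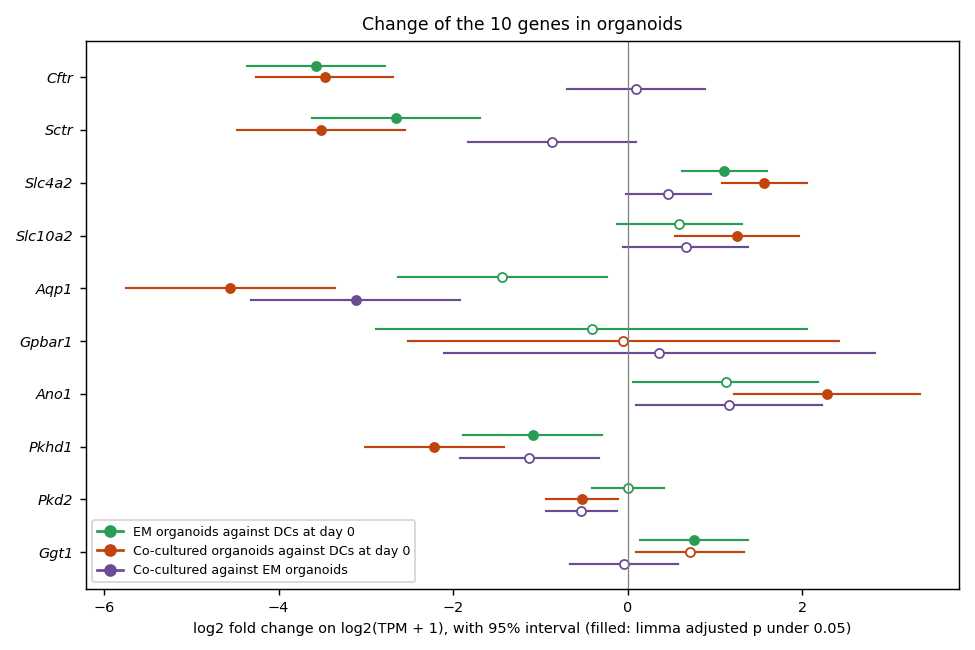
Log2 fold change of each of the 10 genes on the scale log2(TPM + 1), for EM and co-cultured organoids against DCs at day 0 and for co-cultured against EM organoids (2 samples per group). Points are estimates of limma, lines their 95% intervals, and filled points have an adjusted p under 0.05. *Cftr* and *Sctr* lie far to the left in both kinds of organoid, *Aqp1* in co-culture only past the threshold, and *Slc4a2* and *Ano1* to the right.

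*Sctr* encodes the secretin receptor. Its TPM was 20.7 and 8.74 in the DC samples at day 0, 1.46 and 1.17 in EM organoids, and 0.611 and 0 in co-cultured organoids. Both fresh samples were above all 4 organoid samples, in which between 0 and 21 reads were counted. The log2 fold change was -2.65 in EM organoids (SE 0.43, limma adjusted p 0.000799) and -3.52 in co-cultured organoids (SE 0.43, limma adjusted p 0.000153). The mean TPM was 8.94% and 2.08% of that in fresh DCs. The organoids did not differ beyond their error from each other, with -0.86 for co-cultured against EM organoids (95% interval -1.83 to 0.10, limma adjusted p 0.248). As in every bulk sample here, fewer cells that express the gene and less RNA in each cell cannot be told apart.

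*Gpbar1* encodes a bile acid receptor that is coupled to cAMP. It was near the limit of detection in all ductal samples of the transwell experiment, with 5 and 1 reads at day 0, 0 and 0 in EM organoids and 1 and 4 in co-cultured organoids. These counts gave a TPM of at most 0.540, where 3 reads were taken as the floor of detection. Its log2 fold changes of -0.41 and -0.05 against fresh DCs had intervals from -2.88 to 2.06 and from -2.52 to 2.42, so that no change was detectable at this depth (limma adjusted p 0.822 and 1).

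Of the 10 other genes of cAMP signalling, 1 was higher and none lower in EM organoids, and 2 were higher and 3 lower in co-cultured organoids, with list medians of 0.11 and -0.10. *Prkaca*, the catalytic subunit of protein kinase A, rose from 18.2 to 26.6 TPM in fresh DCs to 112 to 124 in EM organoids (log2 fold change 2.37, SE 0.26, limma adjusted p 6.8e-05) and 68.9 to 69.8 in co-cultured organoids (1.61, SE 0.26, limma adjusted p 0.000779). *Sstr2*, a receptor of the inhibitory hormone somatostatin, rose in co-culture by 2.02 (SE 0.68, limma adjusted p 0.0373), from a mean of 0.925 to between 5.68 and 8.11 TPM. *Vipr1*, a receptor for vasoactive intestinal peptide, fell by 1.78 there (SE 0.38, limma adjusted p 0.00447).

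*Cftr*, the chloride channel opened by cAMP, had a TPM of 45.1 and 49.5 in fresh DCs. It was 3.70 and 2.52 in EM organoids and 3.68 and 3.04 in co-cultured organoids. The 4 organoid samples lay close together and far under both fresh samples. The log2 fold changes were -3.57 (SE 0.35, limma adjusted p 3.7e-05) and -3.47 (SE 0.35, limma adjusted p 4.8e-05), which left 6.57% and 7.10% of the fresh mean. Between the organoids the difference was 0.10, with a 95% interval from -0.69 to 0.88 (limma adjusted p 0.983). *Cftr* thus fell in both media, by an amount that did not differ between them beyond this interval.

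*Ano1*, the chloride channel opened by calcium, went the other way. Its TPM was 64.6 and 48.6 in fresh DCs, 126 and 120.4 in EM organoids, and 288 and 266 in co-cultured organoids. The groups did not overlap in this order. The log2 fold change of 2.28 in co-cultured organoids passed the threshold (SE 0.47, limma adjusted p 0.00361). That of 1.12 in EM organoids did not (SE 0.47, limma adjusted p 0.0828), nor did that of 1.16 between the organoids (SE 0.47, limma adjusted p 0.153). Without either co-cultured SCA1+Msc sample, whose *Ano1* TPM of 5.26 and 20.2 enter the common estimate of the spread, the last 2 differences passed with limma adjusted p down to 0.00744 and 0.0216. As a ratio within a sample on the TPM scale, *Ano1* over *Cftr* was 1.43 and 0.981 in fresh DCs, 33.98 and 47.8 in EM organoids and 78.1 and 87.4 in co-cultured organoids. In the DCs of the homeostasis experiment the same ratio, on TPM, was 2.23, 3.70 and 1.54.

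Among the 8 genes of calcium and purinergic signalling that can act upstream of such a channel, 1 was higher and 2 lower in EM organoids, and 3 were higher and 3 lower in co-cultured organoids. *P2ry2*, a receptor for extracellular ATP and UTP, rose in EM organoids by 1.34 on the log2 scale (SE 0.33, limma adjusted p 0.00804), from 63.7 to 85.5 TPM to 179 to 198. The type 3 receptor of inositol trisphosphate, *Itpr3*, rose in co-culture by 1.198 (SE 0.35, limma adjusted p 0.0204), whereas *Itpr1* fell, with log2 fold changes of -1.24 in EM and -2.003 in co-cultured organoids (limma adjusted p 0.0204 and 0.00173). *Nt5e*, an enzyme that makes adenosine outside the cell, rose in co-culture by 3.04 (SE 0.39, limma adjusted p 0.000224).

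*Aqp1* encodes a water channel of cholangiocytes that endothelial and red blood cells also make. Its TPM was 54.3 and 50.3 in fresh DCs, 27.6 and 12.5 in EM organoids, and 3.28 and 0.202 in co-cultured organoids, the last with 4 reads. The 3 groups did not overlap. *Aqp1* fell in co-culture by 4.55 on the log2 scale (SE 0.53, limma adjusted p 0.000121) and was lower there than in EM organoids by a log2 fold change of -3.12 (SE 0.53, limma adjusted p 0.00462). The value of -1.44 in EM organoids missed the threshold (SE 0.53, limma adjusted p 0.0530), and passed it without EM organoid replicate 1 (limma adjusted p 0.0369) or without either co-cultured organoid sample (limma adjusted p 0.00944 and 0.00924), and also after quantile normalization (limma adjusted p 0.0264), on RPKM (limma adjusted p 0.0146) and with only these groups fitted (limma adjusted p 0.0168). Over the alternatives fitted for single genes the adjusted p of this value in limma ran from 0.00924 to 0.308.

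Markers of the other cells that make *Aqp1* were also lower in organoids than in fresh DCs. The 6 endothelial markers summed to between 33.1 and 35.3 TPM in fresh DCs, where all 6 reached 1 TPM. They summed to between 2.93 and 6.80 in EM and between 8.20 and 8.63 in co-cultured organoids, where 1 of 6 reached 1 TPM and *Kdr*, *Cdh5*, *Stab2* and *Lyve1* were at 0. The 5 erythroid markers summed to between 4579 and 4687 TPM in fresh DCs, 0.467 and 1.37 in EM organoids and 0 and 0.0552 in co-cultured organoids, in both of which *Hbb-bs*, *Hbb-bt* and *Hba-a1* were at 0. Their part in the *Aqp1* level of fresh DCs was not tested. The endothelial sum was higher in co-cultured than in EM organoids, without overlap, and *Aqp1* was lower. The part of other cells in this difference of *Aqp1* was not tested.

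The other water channels changed in both directions. Of the 6 other aquaporins 5 were tested, and 2 were higher and 2 lower in EM organoids and 3 higher and 2 lower in co-cultured organoids. *Aqp5*, a water channel of secretory glands, rose from between 0.0959 and 0.906 TPM in fresh DCs to between 299 and 347 in EM organoids (log2 fold change 7.80, SE 0.36) and between 169 and 223 in co-cultured organoids (7.08, SE 0.36). Both fresh samples were under the filter value of 1 and the organoids over it, so that its calls, counted above, are a description. *Aqp3* was at 0 in fresh DCs and in EM organoids and between 16.6 and 17.5 TPM in co-cultured organoids and passed the filter through the latter alone, so that its call is a description. *Aqp8* and *Aqp9*, which hepatocytes also make, fell in EM organoids by 3.59 and 4.26 (limma adjusted p 7.0e-05 and 4.2e-05), while 6 hepatocyte markers summed to 4137 to 5241 TPM in fresh DCs, 1339 to 1404 in EM and 153 to 347 in co-cultured organoids. Their part in the levels of *Aqp8* and *Aqp9* was not tested. *Aqp1* made up 64.1% and 54.4% of the summed TPM of the 7 aquaporins in fresh DCs, 7.28% and 3.96% in EM organoids, and 1.33% and 0.106% in co-cultured organoids, while *Aqp5* made up at most 1.07% in fresh DCs of this experiment and at least 88.4% in every organoid sample. In the fresh DCs of the homeostasis experiment *Aqp5* made up 50.8%, 30.8% and 13.04% on the TPM scale, so that its low share at day 0 was not found in every fresh sample.

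**Figure D2:**
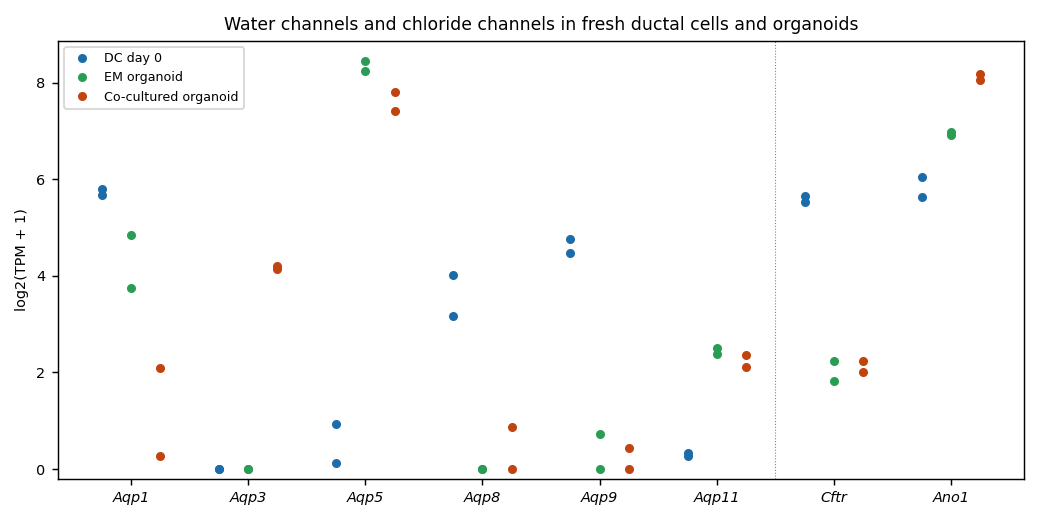
TPM as log2(TPM + 1) of 6 aquaporins and, right of the dotted line, the chloride channels *Cftr* and *Ano1*, with 1 point for each of the 2 samples of DCs at day 0, EM organoids and co-cultured organoids. *Aqp5* is near 0 in fresh DCs and between 169 and 347 TPM in all organoids, *Aqp3* appears in co-cultured organoids only, and *Cftr* and *Ano1* move in opposite directions.

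*Slc4a2*, the anion exchanger that moves bicarbonate out in exchange for chloride, rose in both kinds of organoid. Its TPM was 13.8 and 11.6 in fresh DCs, 33.2 and 24.2 in EM organoids, and 39.8 and 38.94 in co-cultured organoids. Every organoid sample was above both fresh samples. The log2 fold changes were 1.10 (SE 0.22, limma adjusted p 0.00251) and 1.57 (SE 0.22, limma adjusted p 0.000343), and the difference between the organoids was 0.46 (95% interval -0.03 to 0.95, limma adjusted p 0.220). Of the exon bases of *Slc4a2*, 13.7% are shared with exons of *Fastk* on the opposite strand, and reads there cannot be told apart without strand.

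Of 14 further genes of ion and base transport 12 were tested, and 4 were higher in each kind of organoid, with 2 lower in EM and 1 lower in co-culture. *Car2*, the carbonic anhydrase that supplies bicarbonate, stood at 3839 to 3885 TPM in fresh DCs, 879 to 908 in EM organoids and 1995 to 2025 in co-cultured organoids. It fell by 2.11 on the log2 scale in EM organoids (SE 0.32, limma adjusted p 0.000514) and by 0.94 in co-culture (SE 0.32, limma adjusted p 0.0376), and was higher in co-cultured than in EM organoids by 1.17 (SE 0.32, limma adjusted p 0.0402). *Car12*, a carbonic anhydrase of the cell surface, rose in both, by 2.65 and 2.29 (limma adjusted p 0.00163 and 0.00398). The sodium pump subunit *Atp1b1* rose in EM organoids by 1.11 (SE 0.25, limma adjusted p 0.00561), and the sodium bicarbonate cotransporter *Slc4a4* in co-culture by 1.18 (SE 0.41, limma adjusted p 0.0405), from 8.499 to 10.7 to 21.99 to 23.9 TPM.

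*Slc10a2* encodes the apical sodium-dependent bile acid transporter. Its TPM was 4.28 and 3.81 in fresh DCs, 8.37 and 5.17 in EM organoids, and 9.23 and 13.2 in co-cultured organoids. All organoid samples were above both fresh samples. The rise of 1.26 in co-culture passed the threshold (SE 0.32, limma adjusted p 0.0101), but did not without DC replicate 2 (limma adjusted p 0.0519) or co-cultured organoid replicate 2 (limma adjusted p 0.0815). A pseudocount of 0.1 also ended this call (limma adjusted p 0.0654), which held in the other alternatives fitted for single genes. The value of 0.59 in EM organoids did not pass (95% interval -0.12 to 1.30, limma adjusted p 0.163).

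The other genes of bile acid transport and sensing held 8 members, of which 6 were tested. Against fresh DCs 1 was higher and 2 lower in EM organoids and 3 were higher and 2 lower in co-culture. *Abcc3*, a basolateral exporter of bile acids and conjugates, rose from 43.1 to 45.6 TPM to 94.3 to 97.4 in EM organoids (log2 fold change 1.10, SE 0.38, limma adjusted p 0.0425) and 271 to 361 in co-cultured organoids (2.79, SE 0.38, limma adjusted p 0.000330). *Nr1h4*, the bile acid receptor FXR, rose in co-culture by 1.39 (SE 0.25, limma adjusted p 0.00181). *Abcc2*, an apical exporter that hepatocytes also make, and *S1pr2*, a sphingosine phosphate receptor that conjugated bile acids activate, fell in both, the latter by 1.19 and 1.03 (limma adjusted p 0.000853 and 0.00214).

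*Pkhd1* encodes fibrocystin, a ciliary protein that is mutated in recessive polycystic kidney and liver disease. Its TPM was 42.2 and 46.3 in fresh DCs, 21.98 and 18.6 in EM organoids, and 7.08 and 10.7 in co-cultured organoids. The groups formed 3 separate steps. The log2 fold change was -2.22 in co-cultured organoids (SE 0.35, limma adjusted p 0.000817) and -1.09 in EM organoids (SE 0.35, limma adjusted p 0.0315). The latter did not pass without DC replicate 1 or 2 or EM organoid replicate 1 or 2, when the limma adjusted p was 0.0778 to 0.142. Nor did it with a pseudocount of 0.1 (limma adjusted p 0.119) or no filter (limma adjusted p 0.0556), so that 6 of 19 alternatives ended the call. The step between the organoids, -1.13, missed the threshold (SE 0.35, limma adjusted p 0.0703), and passed it without either SCA1+Msc sample of day 0 (limma adjusted p 0.0203 and 0.0212). *Slc10a2*, the other gene with the HNF1 sequence in its promoter window, did not fall. The part of this sequence in the level of either gene was not tested.

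*Pkd2* encodes polycystin-2, a cation channel of the primary cilium. Its TPM was 15.3 and 20.7 in fresh DCs, 19.2 and 16.7 in EM organoids, and 13.05 and 11.2 in co-cultured organoids. Fresh DCs and EM organoids overlapped, with a log2 fold change of 0.01 (95% interval -0.40 to 0.42, limma adjusted p 1), and both co-cultured samples were lowest. The value of -0.52 in co-culture was just past the threshold (SE 0.18, limma adjusted p 0.0436). It missed the threshold without any one of 9 libraries, with limma adjusted p of 0.0539 to 0.264. These were DC replicate 2, either EM organoid, either co-cultured organoid, and either of the SCA1+Msc samples grown alone or in co-culture. The call also ended when only the compared groups were fitted (limma adjusted p 0.116) and without trend (limma adjusted p 0.0592). A replicate block (limma adjusted p 0.0590) and RPKM (limma adjusted p 0.0857) ended it as well.

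Of 7 other genes of the cilium and of polycystic disease, 1 rose and 1 fell in each kind of organoid. *Bicc1*, an RNA-binding protein whose loss gives cysts, rose by 2.89 in EM organoids (SE 0.14, limma adjusted p 7.8e-07), from 34.2 to 46.5 to 298 to 305 TPM, and by 1.12 in co-culture (SE 0.14, limma adjusted p 0.000230). *Trpv4*, an osmosensitive calcium channel of cholangiocyte cilia, fell by 1.57 in EM organoids (SE 0.57, limma adjusted p 0.04998), and *Arl13b*, a GTPase of the cilium, fell by 2.16 in co-culture (SE 0.28, limma adjusted p 0.000246).

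*Ggt1* encodes γ-glutamyltransferase, which starts the breakdown of glutathione at the luminal surface. Its TPM was 7.60 and 10.2 in fresh DCs, 16.4 and 14.8 in EM organoids, and 15.2 and 15.0 in co-cultured organoids. All organoid samples were above both fresh samples. The log2 fold changes of 0.76 and 0.72 stood on either side of the threshold (SE 0.28 each, limma adjusted p 0.0485 and 0.0629), and the first no longer passed without any one of the other libraries except the 2 of SCA1+Msc at day 0 (limma adjusted p 0.0552 to 0.221). After quantile normalization the first was 0.34 (limma adjusted p 0.351). With a pseudocount of 0.1 or no filter its limma adjusted p was 0.301 and 0.0925. Of 19 alternatives 14 ended the first call and 2 brought the second past the threshold. The organoids differed by -0.04 (95% interval -0.66 to 0.58). Of 7 other luminal peptidases and retrieval genes none was higher and 4 were lower in EM organoids, and none was higher and 5 lower in co-culture. *Slc5a1*, a sodium-glucose cotransporter, went from 109 to 132 TPM to 16.7 to 17.6 in EM and 5.04 to 9.63 in co-cultured organoids, falls of 2.74 and 3.91 (limma adjusted p 0.000134 and 1.6e-05). *Anpep*, an aminopeptidase of apical membranes, fell by 3.18 and 3.752 (limma adjusted p 5.4e-05 and 2.1e-05).

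Over all 7 lists with 60 genes, 55 were tested. In EM organoids 18.2% of them were higher and 23.6% lower than in fresh DCs, and in co-culture 29.1% were higher and 30.9% lower, beside the shares of all genes given above. The medians were 0.05 and 0.03. Luminal peptidases and retrieval genes had the lowest medians of the lists in both comparisons, -1.42 and -1.77. Between the organoids 6 of the 55 were higher and 7 lower in co-culture.

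**Figure D3:**
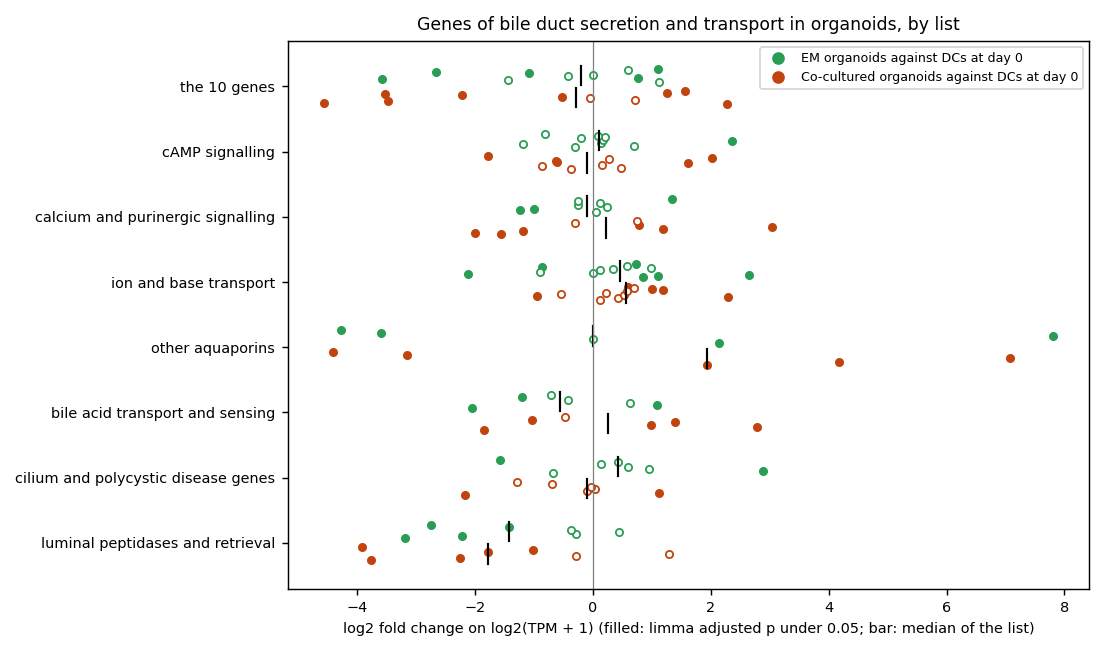
Log2 fold change on log2(TPM + 1) of the 10 genes and of 7 further lists, in EM and co-cultured organoids against DCs at day 0. Each point is a gene, filled at a limma adjusted p under 0.05, and bars are list medians, which run from -1.42 to 0.46 in EM organoids and from -1.77 to 1.94 in co-culture.

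The fresh populations show how far the 10 genes mark ductal cells. In the homeostasis experiment 5 of them were higher in DCs than in PDGFRα+SCA1+ cells and 1 was lower, against 14.0% and 9.85% of all 17028 genes tested. The counts were the same against PDGFRα+SCA1- cells (18.9% and 9.98% of all genes), and against PDGFRα-SCA1+ cells 6 were higher and 1 lower (11.3% and 11.5%). The comparisons share the DC samples. Against PDGFRα+SCA1- cells quantile normalization moved the share of higher genes among all those called from 65.4% to 53.9%. *Sctr*, *Slc10a2* and *Ggt1* reached a value of 1 in the 3 DC samples and in no other, so that they passed the filter through DCs alone and had to differ. *Cftr* and *Pkhd1* reached it in fewer stromal samples than the filter asks for, so that they too passed only with the DCs. The calls that these genes add to each count are therefore a description. The counts are not read against the shares of all genes, and the levels of these genes are given without a test.

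The *Sctr* value was 17.9, 7.42 and 14.6 in the DCs of mice A, E and F and 0 in all 9 stromal samples. Against a floor of 3 reads per library its mean was at least 62.9-fold higher in DCs than in each stromal group. *Cftr* was at 50.8, 34.3 and 55.5 in DCs, with at most 1 read in 8 of the 9 stromal samples. The exception was the PDGFRα-SCA1+ sample of mouse F, with a value of 5.06 from 274 reads, beside an *Epcam* value of 30.8. The log2 fold change of *Cftr*, as a description, was 5.54 against PDGFRα+SCA1+ cells (SE 0.67) and 4.69 against PDGFRα-SCA1+ cells (SE 0.67).

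*Pkhd1* stood at 104, 114 and 82.3 in DCs. Stromal samples held at most 6 reads of it, except for values of 1.02 in PDGFRα+SCA1+ cells of mouse F and 3.72 in PDGFRα-SCA1+ cells of mouse E. The latter sample had an *Epcam* value of 148 and an *Spp1* value of 3493, and no read of *Cftr*. The part of ductal cells in its *Pkhd1* value was not tested. The log2 fold changes of *Pkhd1* against the 3 stromal groups, as a description, were 6.30, 6.59 and 5.89.

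*Slc10a2* was at 30.1, 21.0 and 29.8 in DCs and at 0 in all PDGFRα+SCA1- samples, which put DCs at least 220-fold above the floor of 3 reads per library there. Its highest stromal value was 0.862, in PDGFRα+SCA1+ cells of mouse F. *Ggt1* was at 20.1, 11.0 and 23.9 in DCs, and no stromal sample held more than 1 read.

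*Aqp1* had its lowest mean in DCs, with values of 6.85, 9.82 and 22.8, and far highest in PDGFRα-SCA1+ cells, with 5938, 4298 and 5577. The latter had a summed value of 1852 to 2265 for the 6 endothelial markers, against 6.14 to 10.2 in DCs. The difference was -8.69 for DCs against PDGFRα-SCA1+ cells (SE 0.74, limma adjusted p 4.6e-06). *Aqp1* was 26.9, 23.1 and 24.2 in PDGFRα+SCA1+ and 4.47, 77.1 and 29.1 in PDGFRα+SCA1- cells. Neither group differed from DCs past the threshold (limma adjusted p 0.361 and 0.398), although without the PDGFRα+SCA1- sample of mouse A the second did, at -1.94 (limma adjusted p 0.0101).

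*Gpbar1* was higher in both PDGFRα+ populations than in DCs. Its values were 39.9, 21.1 and 3.12 in PDGFRα+SCA1+ cells and 66.9, 34.7 and 15.3 in PDGFRα+SCA1- cells, against 0, 3.99 and 1.90 in DCs and at most 0.634 in PDGFRα-SCA1+ cells. In both PDGFRα+ groups mouse A was highest and mouse F lowest, and the lowest PDGFRα+SCA1+ value lay within the range of DCs. The log2 fold change of DCs was -3.81 against PDGFRα+SCA1- cells (SE 0.89, limma adjusted p 0.00708) and -2.67 against PDGFRα+SCA1+ cells (SE 0.89, limma adjusted p 0.0483). The latter gave a limma adjusted p of 0.0584 with the mouse as a block. It also missed the threshold without any one of 8 libraries (DCs of A or F, PDGFRα+SCA1+ cells of A or E, PDGFRα+SCA1- cells of E, and each PDGFRα-SCA1+ sample), with limma adjusted p of 0.0547 to 0.189.

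*Ano1*, *Slc4a2* and *Pkd2* were measured in DCs and in all 3 stromal populations. *Ano1* was at 114, 127 and 85.4 in DCs, between 49.9 and 55.7 in PDGFRα+SCA1+ cells, at 161, 54.1 and 47.4 in PDGFRα+SCA1- cells and at 17.5, 17.1 and 1.90 in PDGFRα-SCA1+ cells. It differed past the threshold from the last, by 3.45 (SE 0.65, limma adjusted p 0.00199). The difference of 1.003 from PDGFRα+SCA1+ cells, whose samples did not overlap with DCs, missed it (SE 0.65, limma adjusted p 0.307) and passed when only these groups were fitted (limma adjusted p 0.00542). *Slc4a2* was at 20.2, 10.9 and 17.2 in DCs and was highest in PDGFRα+SCA1- cells, with 21.0, 27.3 and 30.04. *Pkd2* was at 20.8, 30.9 and 35.0 in DCs and lowest in PDGFRα-SCA1+ cells, with 18.8, 10.9 and 8.31. Neither gene differed between DCs and any stromal group past the threshold (limma adjusted p 0.0571 to 0.438). For *Slc4a2* the difference from PDGFRα-SCA1+ cells passed without the sample of mouse F (limma adjusted p 0.0489), and for *Pkd2* without the PDGFRα-SCA1+ sample of mouse A or the PDGFRα+SCA1- sample of mouse E or F (limma adjusted p 0.0304 to 0.0390).

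**Figure D4:**
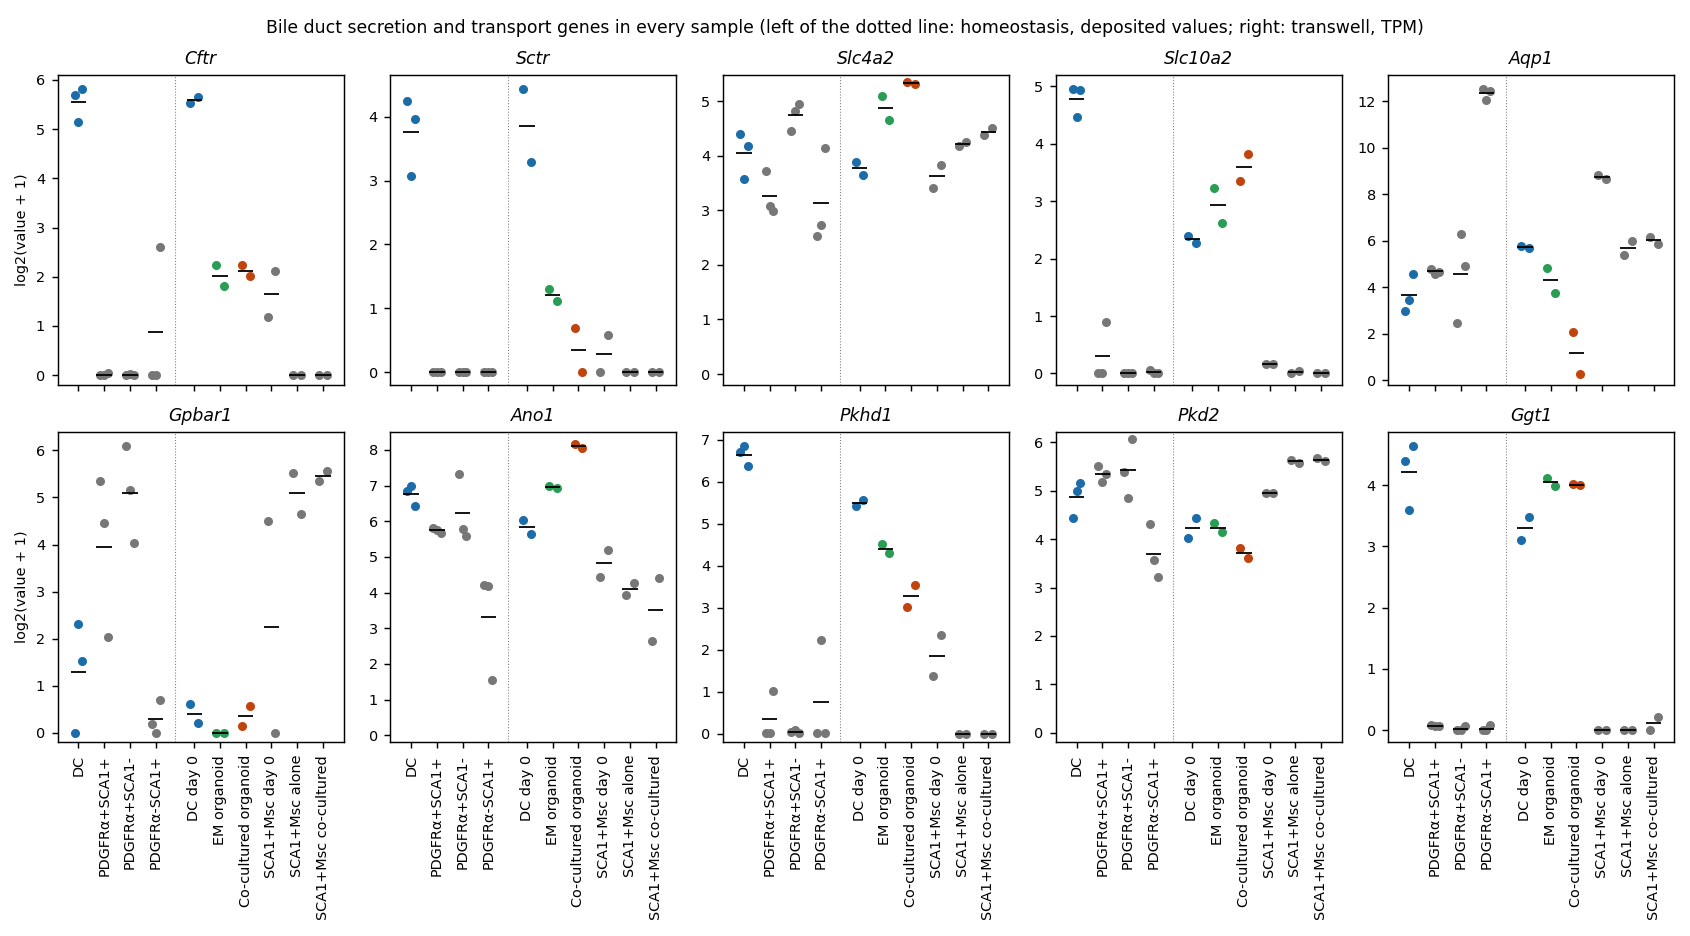
Values of the 10 genes in every sample as log2(value + 1), with 1 point per sample and a bar at the mean of these log values. Left of the dotted line are the 4 fresh populations of the homeostasis experiment (3 mice each, deposited values) and right of it the 6 groups of the transwell experiment (2 samples each, TPM). *Sctr*, *Cftr*, *Slc10a2*, *Pkhd1* and *Ggt1* are high in DCs and near 0 in most stromal samples, and *Aqp1* is highest in PDGFRα-SCA1+ cells.

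The transwell experiment gave a like order in its own fresh cells. Of the 10 genes 5 were higher and 2 lower in DCs than in SCA1+Msc at day 0, against 24.7% and 21.4% of all genes. *Sctr*, *Slc10a2* and *Ggt1* reached 1 TPM in ductal samples only, so that their calls in this count are a description. *Cftr* had a TPM of 1.28 and 3.31 in SCA1+Msc at day 0, *Pkhd1* of 1.58 and 4.11 and *Sctr* of 0 and 0.497. Replicate 2 was the higher for each of these and also had the higher ductal marker sum. The part of ductal cells in these values was not tested. No read of these 3 genes was counted in the 4 SCA1+Msc samples of day 15. Fresh DCs were thus at least 827-fold (*Cftr*), 66.5-fold (*Sctr*) and 1423-fold (*Pkhd1*) above the floor of 3 reads per library in each. *Ggt1* had no read in SCA1+Msc at day 0, with a log2 fold change of 3.29 (SE 0.28). *Slc10a2* had 3 reads in each of these samples.

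*Aqp1* and *Pkd2* were lower in fresh DCs than in SCA1+Msc at day 0. *Aqp1* had a TPM of 459.6 and 407 in those cells, 40.9 and 63.3 after culture alone and 71.5 and 57.5 after co-culture, with a log2 fold change of -3.03 for DCs at day 0 (SE 0.53, limma adjusted p 0.00121). The 6 endothelial markers summed to 209 to 214 TPM in them at day 0 and 89.4 to 174 after culture. *Pkd2* had a TPM of 29.8 and 30.1 at day 0 and 46.4 to 50.1 after culture, against -0.72 for DCs (SE 0.18, limma adjusted p 0.00939, and 0.0722 without DC replicate 1). *Gpbar1* was at 21.8 TPM in SCA1+Msc replicate 1 at day 0 and at 0 in replicate 2, and between 24.002 and 45.9 in all 4 samples after culture. Its difference from DCs, -1.84, turned to 0.41 without replicate 1 of SCA1+Msc at day 0 and passed the threshold, at -4.10, without replicate 2 (limma adjusted p 0.000109).

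In the order of the 6 transwell groups by mean TPM, DCs at day 0 were first for *Cftr*, *Sctr* and *Pkhd1*, co-cultured organoids for *Slc4a2*, *Slc10a2* and *Ano1*, and EM organoids for *Ggt1*. Among neighbours of which at least one was a ductal group, samples overlapped for co-cultured and EM organoids for *Cftr* and *Ggt1*, EM organoids and SCA1+Msc at day 0 for *Cftr*, co-cultured organoids and SCA1+Msc at day 0 for *Sctr*, and DCs at day 0 and EM organoids for *Pkd2*. DCs at day 0 also overlapped with SCA1+Msc at day 0 for *Slc4a2*, with SCA1+Msc grown alone for *Aqp1*, and with SCA1+Msc at day 0 and co-cultured organoids for *Gpbar1*. For *Slc10a2*, *Ano1*, *Slc4a2* and *Aqp1* the 3 ductal groups were each apart from their neighbours among them.

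The fresh DCs of both experiments can be set side by side as TPM, without a test, since the tables were made separately. *Cftr* was at 26.1 to 59.2 in the homeostasis and 45.1 to 49.5 in the transwell experiment, *Sctr* at 7.63 to 17.4 and 8.74 to 20.7, and *Slc4a2* at 10.5 to 15.5 and 11.6 to 13.8, with overlap for each. *Slc10a2* was at 17.1 to 30.1 and 3.81 to 4.28, *Pkhd1* at 73.8 to 92.4 and 42.2 to 46.3, and *Ano1* at 89.7 to 96.7 and 48.6 to 64.6. These 3 were higher in every homeostasis sample. *Aqp1* was lower there, at 5.07 to 20.5 against 50.3 to 54.3. The mice differ in genotype and the values in how they were made. The *Slc10a2* level of co-cultured organoids, 9.23 and 13.2 TPM, was thus above the fresh DCs of its own experiment and under those of the other.

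The genes most like 4 of these genes in their TPM over the 12 transwell samples were looked up by Pearson's r of log2(TPM + 1), as a description, since all 12 share 6 groups. *Anxa5* (0.995), *Dcdc2a* (0.986) and *Hnrnpu* (0.986) came first for *Cftr*, and *Dcdc2a*, a doublecortin-domain gene, went from 30.6 to 36.0 TPM in fresh DCs to 2.37 to 5.67 in organoids. *Erbb4* (0.974), *Ano6* (0.973) and *Ttc6* (0.972) came first for *Sctr*. For *Aqp1* these were *Enc1* (0.966), *Itpr1* (0.957) and *S1pr1* (0.946), of which the sphingosine phosphate receptor *S1pr1* was at 22.4 to 27.7 TPM in fresh DCs, 17.0 to 21.7 in EM and 0.174 to 2.24 in co-cultured organoids. *Ralgps2* (0.984), *Spns3* (0.967) and *Gipc2* (0.966) were most like *Ano1*, and *Gipc2* rose in step from 11.9 to 14.3 to 26.6 to 29.9 and 86.9 to 90.9 TPM.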

How the data were processed

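Single-end Smart-seq2 reads of 24 samples were aligned by the authors to GRCm38 (mm10) with STAR 2.5.0a, filtered for mapping quality with SAMtools and counted over exons with featureCounts. RPKM are the deposited values of the transwell experiment, from which TPM was made by dividing each sample by its sum. For the homeostasis experiment the authors deposited a score named TPM. It is 0.722 to 1.39 times TPM, because the totals used as divisors run through all samples down the table in a cycle of 12. With the cycle undone, low values came out as whole reads. The deposited values were analysed, and TPM with this reuse undone is an alternative. Their 4 columns of population means were not used.

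Depth was recovered from low values, of which 92.9% (homeostasis, reuse undone) and 93.1% (transwell) came out as whole reads within 0.02 of a read, with exon lengths of GENCODE M21. The floor of detection was 3 reads per library. It covers only the error of counting, as PCR copies were not told apart by molecular identifiers.

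Values were taken as log2(value + 1). A gene entered the fit when it reached 1 in 3 or more homeostasis samples or in 2 or more transwell samples. limma 3.58.1 in R 4.3.3 fitted a mean for every group to the 12 samples of each experiment, with a trended eBayes step, and 7 comparisons were drawn from it. Fold changes on this scale understate those of low genes. Tests were two-sided with Benjamini-Hochberg adjustment over all genes tested and a threshold of 0.05, and the fit was tested on simulated data. The paper names no test for its RNA-seq. The 10 genes and all lists were chosen with earlier results of these data known. All 10 are named, of each further list up to 2 genes with the largest rise and 2 with the largest fall among those past the threshold, any marker gene, and the 3 genes most like *Cftr*, *Sctr*, *Aqp1* and *Ano1*, without symbols that are only gene numbers or dates. Results of a few list and marker genes are not reported here. The populations of mice A, E and F come from the same animals. Deviations of samples of the same mouse from their group means were hardly correlated across genes, at 0.0102 to 0.0970. The mouse was a block in an alternative fit. Other alternatives were a pseudocount of 0.1, no filter, a minimum of 5, quantile normalization, eBayes without trend, the 2 compared groups only, at least a 2-fold change, RPKM as deposited, and leaving out each sample. Python 3.11.15 was used beside R.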

Additional observations from a re-analysis of the deposited data

Results flagged for a closer look

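The change against fresh DCs differed between co-cultured and EM organoids for 1 of the 10 genes and for 11 further genes of the lists, given here, (limma test of the difference itself, which is the log2 fold change of co-cultured against EM organoids). *Aqp1* was lower in co-culture by -3.12 (limma adjusted p 0.00462, 2 of 2 samples lower). *Aqp3* (4.17), *Nt5e* (3.28), *Slc4a7* (1.86), *Nr1h4* (1.81), *Abcc3* (1.70) and *Car2* (1.17) were higher in co-culture. *Aqp3* passed the filter through co-cultured organoids alone and had to differ. *Bicc1* (-1.77), *Arl13b* (-1.48), *Slc5a1* (-1.18), *Prkacb* (-0.78) and *Prkar1a* (-0.42) were lower. The medium and the presence of SCA1+Msc differ together between these groups. Groups held 2 or 3 samples and were not tested for a single sample that stands apart.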

How the results depend on the processing

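A minimum of 5 and at least a 2-fold change were applied only to the numbers of genes called, not to single genes. Of 40 differences of single genes of the 10 that passed the threshold, 34 stayed past it in the same direction. This held under every other alternative that gave a value. Those of *Cftr* and *Pkhd1* against homeostasis stroma are among the 34, but passed the filter only with the DCs and are a description. Those of *Sctr*, *Slc10a2* and *Ggt1* against stroma are among the 34, were set by the filter, say nothing about stability, and could not be fitted without a DC sample of the homeostasis experiment, since the filter then removes these genes, and the number of the 10 called fell to between 2 and 6 (6 as reported, against PDGFRα+SCA1+ cells), between 3 and 7 (6, against PDGFRα+SCA1- cells) and between 4 and 8 (7, against PDGFRα-SCA1+ cells) when 1 sample was left out. In EM organoids against fresh DCs 5 of the 10 were called, 3 with a pseudocount of 0.1, 3 with no filter, and 3 to 5 with 1 sample left out. Between the organoids 1 was called, 3 when only these groups were fitted, 2 with RPKM as deposited and 1 to 2 with 1 sample left out. All genes called against PDGFRα+SCA1+ cells rose from 4054 to 6921 when only these groups were fitted. With 1 sample left out they ran from 2668 to 4925 there, from 3251 to 5115 against PDGFRα+SCA1- cells and from 1093 to 3040 (2348 as reported) between the organoids. The cause was not tested.

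Only values that had not passed changed sign. *Pkd2* in EM organoids was -0.36 after quantile normalization and -0.20 to 0.21 with 1 sample left out, *Gpbar1* in co-culture was 0.32 after quantile normalization and -0.27 to 0.17 with 1 sample left out, and *Ggt1* between the organoids was 0.14 after quantile normalization, 0.0079 with RPKM and -0.12 to 0.028 with 1 sample left out. With 1 sample left out *Cftr* between the organoids ran from -0.11 to 0.31, *Slc4a2* of DCs against SCA1+Msc from -0.062 to 0.35, and *Gpbar1* of the same from -4.10 to 0.41. With a replicate block the counts of all genes called were 3911, 4823 and 3799 in the homeostasis and 7956, 7560, 2211 and 8268 in the transwell experiment. In the latter the labels give the replicate numbers no meaning, and deviations of same-numbered samples were hardly correlated, at 0.00625 to 0.0224. The block ended the calls of *Gpbar1* against PDGFRα+SCA1+ cells, *Ggt1* in EM organoids (limma adjusted p 0.0640) and *Pkd2* in co-culture (limma adjusted p 0.0590), added that of *Aqp1* in EM organoids (limma adjusted p 0.0401) and changed no other of the 70. The depth does not allow a statement on *Gpbar1* in ductal cells of the transwell experiment.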
